A study of Physcomitrium patens with 24 samples.

Results

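Near-identical copies of bound regions are stretches of the moss genome whose protein-protected sites repeat with the same widths and spacing at a second place. Sites of the 3 deposited lists on the same strand less than 500 nt apart were joined into regions, which gave 21257 regions on chromosomes 1 to 27 and 21400 in all. Within a list, each region was written as successive triples of site width, gap and next site width, read along the RNA. A pair of regions was kept when it shared at least 2 identical triples that made at least 30% of the triples of the smaller region. Members were thus selected on site widths and gaps in these lists. The rule kept 256 pairs made of 422 regions (the copies), which were 1.99% of the chromosome regions and 5.97% of the 7067 that held at least 2 triples at some time. The name describes the pattern of sites. Whether the copies match in sequence was not tested here, since no genome of the lists' build was used.

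Protein interaction profile sequencing (PIP-seq) digests crosslinked RNA with nucleases and maps what survives, so that a called site is a stretch shielded by protein. The tissue was protonema, the filamentous juvenile stage of the moss Physcomitrium patens, a plant widely used to study dehydration tolerance. Abscisic acid (ABA) is the hormone through which land plants respond to drought and osmotic stress. Copies of transcribed stretches arise in plant genomes by tandem or inverted duplication and by mobile elements, and an inverted pair gives RNAs of matching sense from opposite strands.

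The labels describe 24 libraries in 12 groups of 2 replicates, all crosslinked with formaldehyde. A group is a time (0, 30 or 60 min), a protein state (plusP or minusP) and an RNase, either ssRNase (RNaseONE, which cuts unpaired RNA) or dsRNase (RNase V1, which cuts paired RNA). The 0-min samples received the solvent methanol and the later ones ABA, at a dose that the design text gives as 10 µM and the treatment protocol as 10 mM. No group without ABA is listed at 30 or 60 min, so ABA and elapsed time cannot be told apart. The lists hold no read counts, and depth is unknown. Each site names the calls merged into it, from 12 call sets (each RNase and replicate at each time) of 7420 to 43653 calls. Between 29773 and 43653 calls came from each dsRNase set. The labels do not say that replicates were separate cultures, so p-values reflect only how far these samples lie apart, which may be technical.

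The copies lay close together. Of the 256 pairs, 253 (98.8%) were on one chromosome, although the rule did not use position. Of the pairs that shared exactly 1 triple, 24.4% were on one chromosome at 0 min, 28.9% at 30 min and 29.8% at 60 min. Placement on one chromosome was not particular to the copies, however. Of pairs that shared 2 or more triples but under 30%, 92.9%, 100.0% and 97.9% lay on one chromosome, and of pairs that shared the only triple of both regions, 77.6%, 85.7% and 87.2% did. The median distance between the 2 copies of a same-chromosome pair was 28.1 kb (quartiles 10.3 and 70.7 kb), 24.5% of pairs lay within 10 kb and 84.2% within 100 kb. In 90 pairs (35.6%) no other region of either strand lay between the copies. Copies were found on all 27 chromosomes, from 2 of 611 regions on chromosome 22 and 2 of 306 on chromosome 27 to 29 of 457 (6.35%) on chromosome 26 and 39 of 1157 (3.37%) on chromosome 3. Their spans ran from 107 to 7706 nt with a median of 1306 nt, and 68 pairs had exactly equal spans.

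Orientation split the same-chromosome pairs into 164 on the same strand, 43 convergent (the RNAs run towards each other) and 46 divergent. The 89 opposite-strand pairs made 35.2% (95% Wilson interval 29.6 to 41.2, which covers counting error only and treats pairs as independent). Opposite-strand copies lay nearer to each other than same-strand copies. The median distance was 12.4 kb for convergent, 24.8 kb for divergent and 36.6 kb for same-strand pairs, and the ranges overlapped widely. No other region lay between the copies in 58.1% of convergent, 32.6% of divergent and 30.5% of same-strand pairs. A pair of same-strand regions less than 500 nt apart is 1 region by construction, which sets the lower end of the same-strand distances.

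**Figure D1:**
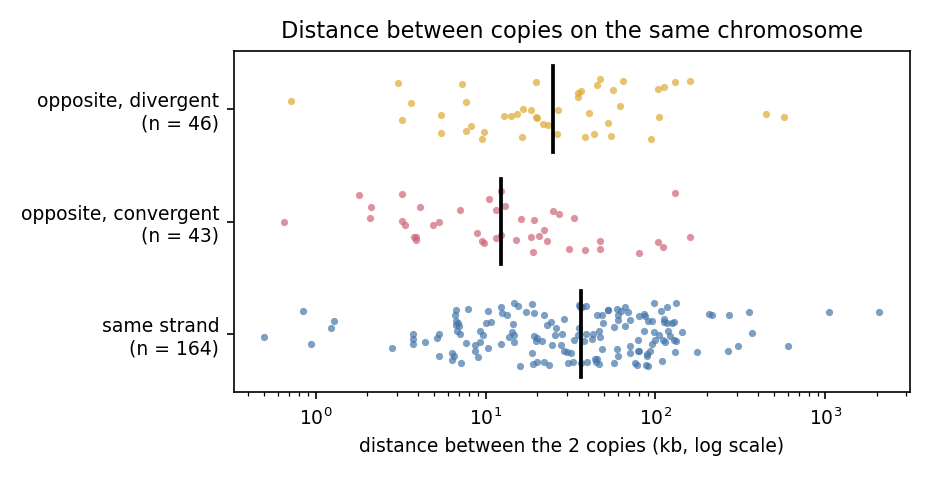
Distance between the 2 copies of each same-chromosome pair in kb (log scale), by arrangement. Each point is a pair and each bar a median, 36.6 kb for same-strand, 12.4 kb for convergent and 24.8 kb for divergent pairs.

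The shortest distance was 500 nt, between 11019214 to 11020694 and 11021195 to 11022774 on the plus strand of chromosome 16, which shared 8 of 12 triples at 30 and at 60 min. The longest was 2069 kb, between plus-strand regions of chromosome 12 that start at 9963253 and 12033313 and shared 2 of 3 triples at 0 min. The nearest opposite-strand pair, 649 nt apart on chromosome 15 (8676243 to 8681009, plus, and 8681659 to 8686422, minus), had spans of 4767 and 4764 nt. Only 3 pairs joined different chromosomes. One linked chromosome 2 (1542097 to 1543091, minus) with chromosome 21 (13325866 to 13327349, minus) and shared 4, 3 and 4 triples at 0, 30 and 60 min, so it met the rule each time. A region of chromosome 17 (81895 to 82930, minus) shared 2 triples at 60 min with one region of chromosome 26 (from 10032221) and 2 at 0 min with another (from 10059423).

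Linking pairs that had a region in common gave 193 groups, of which 168 held 2 regions, 19 held 3, 4 held 4, 1 held 6 and 1 held 7. The group of 7 lay on chromosome 8 between 3122395 and 3254588 and had 3 regions on the plus and 4 on the minus strand. A 107-nt region on its minus strand (3137725 to 3137831) recurred 116.7 kb away (3254482 to 3254588) with 2, 1 and 2 shared triples of 2, 1 and 2 at 0, 30 and 60 min. It also shared 2 triples with plus-strand regions at 0 and at 60 min, and 0 at 30 min. Neighbouring pairs sometimes formed longer units. In 8 blocks, successive pairs within 20 kb kept the same spacing to within 100 nt, 7 of them direct and 1 inverted. The largest block was on chromosome 3, where 3 successive plus-strand regions (from 21355185, 21357225 and 21359232) each recurred exactly 11196 nt downstream. The blocks and the pairs compared below outside the lists of largest values were picked after their values were seen.

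At the margin of the rule, members such as 7:14405607-14407298 (plus) and 7:14454712-14456629 (minus) shared 3 of 10 triples (30.0%) at 30 min. Just outside it, 1:16379638-16383223 (plus) and 1:16422978-16427010 (minus) shared 5 of 17 (29.4%) at 0 min. The pairs with the most shared triples were long same-strand copies. On chromosome 12 the plus-strand regions 14137390 to 14145095 and 14230846 to 14238082 shared 28 of 49 triples at 0 min, 22 of 43 at 30 min and 29 of 43 at 60 min. On chromosome 15, 16279637 to 16285455 and 16639717 to 16645543 shared 28 of 33, 16 of 23 and 19 of 23. Pairs on chromosomes 1 (from 2213630 and 2275005), 13 (from 14395367 and 14441144) and 16 (from 3154168 and 3174471) reached 18 shared triples at one time. Pairs on chromosomes 6 (from 8592327 and 8673941) and 14 (from 13237091 and 13325356) reached 15. Among these only the chromosome 16 pair was on opposite strands, and it was the one whose agreement varied most, with 4 of 29, 1 of 18 and 18 of 32 triples shared at 0, 30 and 60 min.

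Agreement of the 2 copies depended on orientation and time. Same-strand pairs, of which there were 167 with the pairs on different chromosomes, met the rule in 131 cases at 0 min, 117 at 30 min and 125 at 60 min. The 89 opposite-strand pairs met it in 37, 6 and 64 cases. Same-strand copies shared 64.0%, 65.6% and 66.3% of the triples of the smaller region at 0, 30 and 60 min. Opposite-strand copies shared 24.5%, 5.66% and 39.7%. Same-strand agreement was thus nearly level, while opposite-strand agreement was lowest at 30 min. These shares use the same widths and gaps as the rule, so they describe the pairs and carry no test. In all, 84 same-strand and 3 opposite-strand pairs met the rule at all 3 times. In 23 same-strand pairs and 0 opposite-strand pairs every triple was equal at each of the 3 times.

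A pair on chromosome 22 shows such full agreement (13408687 to 13409802 and 13584904 to 13586019, plus strand, 175.1 kb apart). It had 11, 10 and 9 sites at 0, 30 and 60 min, all with equal edges in the 2 copies. At 60 min the first site ran from base 15 to base 127 of each region, 113 nt wide, with a score of 15.21 in both. The calls were also the same in each dsRNase set, 7 and 4 (0 min), 7 and 5 (30 min) and 3 and 3 (60 min). Scores, whose unit the sources do not state, were equal at all but 4 sites, such as one of 18.4 against 18.84. The pattern itself changed with time, alike in both copies.

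Sharing at more than 1 time was common. Of 245 pairs in which both copies had triples at a time other than that of their largest number of shared triples, 188 (76.7%) shared a triple there too. Pairs that have a region in common are not independent, and these are triples of the kind the rule used, so the share is a description. The share was 93.0% of 157 same-strand and 47.7% of 88 opposite-strand pairs. Sites of shared triples carried calls from the same call sets in 99.0%, 98.7% and 98.5% of cases in same-strand pairs at 0, 30 and 60 min, and in 80.9%, 86.0% and 96.8% in opposite-strand pairs. The scores of these sites were equal in 84.7%, 85.8% and 82.1% of cases in same-strand pairs, but in 1.33%, 0% and 19.8% in opposite-strand pairs. Both measures rest on 929, 786 and 845 sites in same-strand pairs. In opposite-strand pairs they rest on 225, 43 and 348 sites, so the values at 30 min come from few sites. The 2 copies had the same number of calls in all 12 call sets in 44 of 167 same-strand and 3 of 89 opposite-strand pairs. The sources used here do not say how reads that match more than 1 place were treated, so 2 copies are not counted as 2 independent observations.

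**Figure D2:**
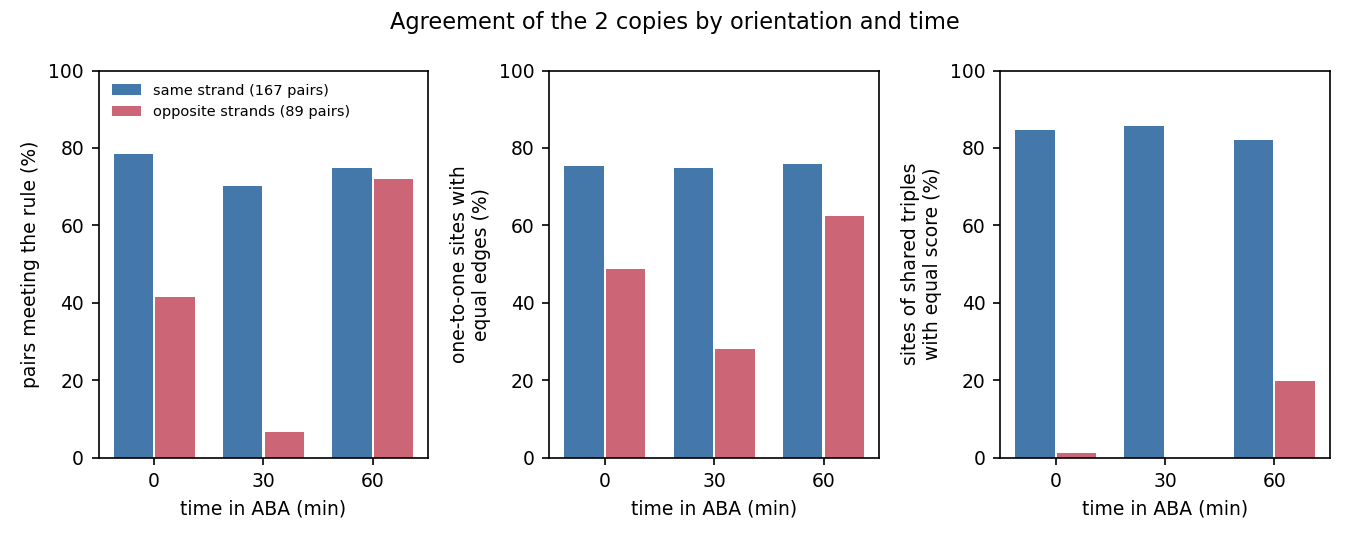
Agreement of the 2 copies at 0, 30 and 60 min for 167 same-strand and 89 opposite-strand pairs, as the percentage of pairs meeting the rule (left), of sites matched one to one that have equal edges (middle) and of sites in shared triples that have equal scores (right). Pairs were selected on widths and gaps, which the left and middle panels also use. Same-strand bars stay between 70.1% and 85.8% in the 3 panels, and opposite-strand bars are lowest at 30 min in each. The opposite-strand value at 30 min in the right panel rests on 43 sites.

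To see how opposite-strand copies differed, the sites of each pair were aligned along the RNA and those matched one to one were compared. Equal edges were found in 48.7% of 637 such sites at 0 min, 28.1% of 480 at 30 min and 62.4% of 647 at 60 min, against 75.3%, 74.9% and 75.8% in same-strand pairs. Unequal widths fell more often to one side. The minus copy's site was the narrower in 38.9%, 66.7% and 32.9% of cases at 0, 30 and 60 min, and the wider in 10.5%, 3.54% and 2.63%. In pairs that did not meet the rule at the time, it was the narrower in 47.38%, 70.45% and 56.43%. Among those pairs the share at 60 min was above that at 0 min, unlike over all pairs. Over all opposite-strand pairs, the mean width of minus less plus sites was nevertheless 3.37, -0.52 and 1.15 nt, so the mean ran the other way at 0 and 60 min. Sites without any counterpart lay more often on the plus copy, with 146 against 75 at 0 min, 229 against 30 at 30 min and 175 against 45 at 60 min. Sites without a counterpart and narrower sites of the minus copy were thus most frequent at 30 min.

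Scores, which the rule did not use, gave the same order at 30 and 60 min. In pairs with at least 3 matched sites, the median score was lower on the minus copy in 43 of 80 pairs at 0 min, in 72 of 72 at 30 min and in 79 of 83 at 60 min. The median over pairs of the log2 ratio of minus to plus was -0.01 at 0 min (quartiles -0.07 and 0.06). It was -0.40 at 30 min (quartiles -0.57 and -0.32) and -0.09 at 60 min (quartiles -0.14 and -0.06). The interquartile ranges of 0 and 30 min did not overlap. All pairs of a time come from the same 4 call sets, so these counts describe the lists and have no p-value. Pairs that have a region in common were counted separately and can repeat a value. Those of a group on chromosome 12, for example, all had -0.88 at 30 min. The counts of pairs are therefore not counts of independent cases. Outside the copies only medians over all sites of a strand could be set side by side. They compare different sites and are not the same measure as the ratio within pairs. The median site score on the minus and plus strand was 17.35 and 18.16 at 0 min. It was 17.65 and 16.53 at 30 min, and 18.95 and 17.36 at 60 min, so the minus strand had the higher median at the 2 later times.

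**Figure D3:**
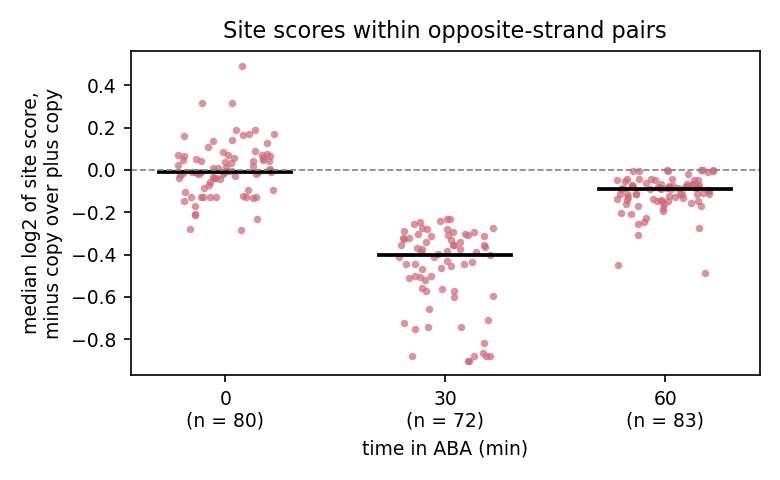
Median log2 ratio of site score, minus copy over plus copy, for each opposite-strand pair with at least 3 matched sites (80, 72 and 83 pairs at 0, 30 and 60 min). Each point is a pair and each bar a median. All 72 points at 30 min lie below 0, the line of equal scores.

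The strands also differed over the whole lists. The share of all dsRNase calls that lay on the plus strand was 55.7% and 46.3% in the 0-min replicates 1 and 2, 59.6% and 55.8% in those of 30 min, and 54.1% and 52.7% in those of 60 min. Within the opposite-strand copies it was 54.3% and 50.6%, then 57.1% and 55.0%, then 53.2% and 52.7%. The mean in these copies was 3.63 percentage points higher at 30 min than at 0 min (56.1% ± 1.46 against 52.4% ± 2.62, SD, n = 2; exact two-sided permutation p = 0.3333, the smallest that 2 against 2 sets can give). In the ssRNase sets, whose calls are merged into the same lists, the difference from 0 min had the opposite sign, -6.51 points at 30 min (53.9% ± 3.75 against 60.4% ± 2.69) and -6.39 points at 60 min (54.0% ± 0.67; SD, n = 2, exact p = 0.3333 for both). The part of this strand imbalance in the difference between copies was not tested.

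Where copies changed with time, both copies passed the test together in some pairs and 1 copy alone in others. Calls per region were compared with limma across all 4502 regions with a mean of at least 2 dsRNase calls, which took in 376 of the 422 copies. A call set served as the sample (2 per time), values were log2 of called loci plus 0.5 scaled per call set and strand, and the threshold was an adjusted p of 0.05. At 30 min against 0 min, 18 copies in 10 groups had more calls (4.79% of those tested, where 16.1% of all regions tested did) and 14 in 10 groups had fewer (3.72%, where 3.51% of all did). At 60 min against 0 min, 21 copies in 11 groups had more (5.59%, background 17.8%) and 19 in 10 groups had fewer (5.05%, background 7.91%). Both comparisons use the same 0-min sets. The median log2 change of the copies tested was -0.08 at 30 min and -0.11 at 60 min, and that of all regions tested was -0.03 at both. Among the copies that rose at 30 min, 3 had no dsRNase call at 0 min, as had 319 of the 706 other multi-triple regions that rose.

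The counts of copies with fewer calls rested on single call sets. For 30 against 0 min, leaving out the 0-min replicates 1 and 2 in turn changed the 14 to 7 and 6. It became 22 when the 30-min replicate 1 was left out, and 22 and 23 when the 60-min replicates 1 and 2 were. For 60 against 0 min, leaving out the 0-min replicate 1 changed the 19 to 11, and leaving out the 30-min replicates 1 and 2 in turn changed it to 32 and 34. Without any scaling, the median change of all regions moved to -0.14 at 30 min and -0.18 at 60 min, and the copies called split into 5 with more and 20 with fewer calls at 30 min (20.0% with more, against 56.2% with scaling). At 60 min the split without scaling was 14 and 35 (28.6% with more, against 52.5%). These are counts among the 376 copies tested. Among all 4502 regions tested, 475 had more and 161 fewer calls at 30 min without scaling, and 575 and 301 at 60 min. Falls at 60 min were thus more frequent among copies than among all regions without scaling, and less frequent with it.

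Between 30 and 60 min few copies changed. By limma 0 copies had more calls (background 0.511%) and 3 in 2 groups had fewer (background 1.2%). Of the 376 copies tested, 18 and 16 passed an unadjusted p of 0.05. The share of all regions at that threshold is not given here, so these counts are not read as a result about the copies. The count with more calls became 4 when either 0-min replicate was left out, 13 and 1 when the 30-min replicates 1 and 2 were, and 1 when the 60-min replicate 2 was. The count with fewer calls became 6 when the 60-min replicate 1 was left out.

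Both copies could be tested in 223 pairs. At 30 min both had more calls in 10 pairs and both fewer in 4, one copy alone had more in 4 and fewer in 5, and in 0 pairs did the copies pass in opposite directions. At 60 min both had more in 12 pairs, both fewer in 8, one alone had more in 3 and fewer in 3, and 0 were opposed. Pairs that have a region in common were counted separately. The trios on chromosomes 15 and 3 described below each entered as several pairs in which both copies had more calls. The counts of pairs are therefore not counts of independent groups. The 2 copies' log2 changes differed by a median of 0.08 (absolute) in 140 same-strand pairs at 30 min and by 0.27 in 83 opposite-strand pairs. With scaling per strand the plus copy's change was the higher in 28 of these 83 pairs, and with no scaling in 69, so its direction depends on the scaling.

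The largest fitted gain, a rank that depends on the prior since there was no call at 0 min, was in 3 copies on chromosome 15, each 1016 nt long, at 558620 to 559635 (minus), 567840 to 568855 (plus) and 572098 to 573113 (minus). At 0 min neither dsRNase set held a call in any of them. The plus copy had 6 and 5 calls in replicates 1 and 2 of 30 min, and each minus copy 4 and 1. Later, at 60 min, the plus copy had 5 and 5 and each minus copy 5 and 6. The later sets did not overlap those of 0 min in any of the copies. Against a floor of 3 calls per set at 0 min, mean calls at 60 min were 1.83-fold higher on the minus copies. On the plus copy they were 1.67-fold higher. These ratios leave out counting error and carry no p-value. The limma fit used the prior, not the floor. It gave an adjusted p at 60 min of 0.000284 on the minus copies and 5.68e-05 on the plus copy. At 30 min the adjusted p was 6.73e-05 on the plus copy and 0.00386 on the minus copies, which passed the threshold no longer without scaling (0.0856). The mean calls of each minus copy at 30 min lay below the floor of 3, so their fitted gain at that time depends on the prior.

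The sites of this trio show how the strands differed at 30 min. The minus copies had 4 sites with equal edges in both, of which the second ran from base 144 to base 293 counted from the 5′ end of the region. The plus copy had 8 sites, with the matching one running from base 144 to base 298 and a score of 57.05 against 42.75. At 60 min all 3 copies had 7 sites, and those at bases 140 to 215, 249 to 294, 297 to 335 and 968 to 1016 had the same edges in all 3. Covered length was 313 nt on each minus copy and 500 nt on the plus copy at 30 min, and 404 and 415 nt at 60 min.

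**Figure D4:**
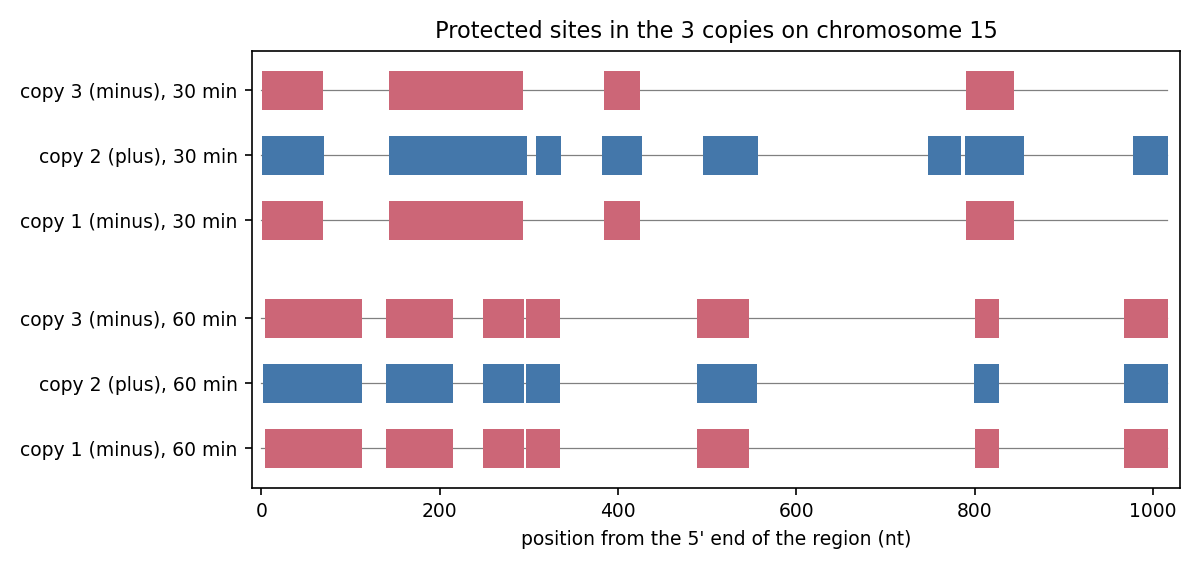
Protected sites (boxes) along the 3 copies on chromosome 15 at 30 and 60 min, by position in nt from the 5′ end of each 1016-nt region, with plus-strand copies in blue and minus-strand copies in red. The minus copies hold 4 sites and the plus copy 8 at 30 min, and each copy holds 7 at 60 min. No site was listed at 0 min.

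A second trio, on chromosome 3, also gained calls. The minus copy at 15333762 to 15334562 had 0 and 1 calls at 0 min, then 5 and 7, then 7 and 8. The other minus copy (15353502 to 15354303) had 0 and 1, then 4 and 5, then 6 and 6. The plus copy (15347379 to 15348180) had 2 and 1, then 5 and 5, then 5 and 6. Values at 30 and 60 min exceeded those at 0 min in every set of each copy. Summed over both sets, the ratio of 60 to 0 min was 15.0 for the first minus copy (exact 95% counting interval 2.31 to 631.5) and 3.67 for the plus copy (0.969 to 20.5). By limma the adjusted p at 60 min was 9.11e-05, 0.000234 and 0.00584 for the 3 copies in that order. At 30 min it was 0.000156, 0.000492 and 0.0184. The plus copy's call at 30 min was lost when the 0-min replicate 2 (0.0682) or the 30-min replicate 2 (0.137) was left out, and its call at 60 min when the 60-min replicate 2 was (0.0529).

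Gains shared by both copies were also seen elsewhere. On chromosome 13 the 2 copies with 18 shared triples (14395367 to 14399109 and 14441144 to 14444808, plus) both had 6 and 6 calls at 0 min. The first rose to 14 and 14 at 30 min and held 14 and 13 at 60 min, and the second held 14 and 12, then 13 and 12. The log2 changes at 60 min were 1.17 (SE 0.29, adjusted p = 0.00814) and 1.07 (SE 0.28, adjusted p = 0.0109). Covered length rose from 1273 to 3061 nt in the first copy and from 1271 to 3014 nt in the second. The ssRNase sets had 2 and 0 calls at 0 min in both copies, and 8 and 9 at 30 min.

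The largest fitted fall at 60 min was in a divergent pair on chromosome 2, 7296 nt apart (8264540 to 8266071, minus, and 8273368 to 8274520, plus). Across the 3 times the minus copy had 7 and 7, then 9 and 7, then 0 and 0 calls. The plus copy had 6 and 6, then 9 and 6, then 0 and 0. Neither copy had a site of any kind at 60 min, so the loss came after 30 min in both. A floor of 3 calls per set at 60 min was 2.33-fold below the minus copy's mean at 0 min. It was 2.67-fold below that copy's mean at 30 min. For the plus copy the floor was 2.00-fold and 2.50-fold lower. These ratios leave out counting error and carry no p-value. The limma fit, which did not use the floor, gave adjusted p-values of 1.41e-05 (against 0 min) and 0.000234 (against 30 min) on the minus copy. On the plus copy they were 1.95e-05 and 0.00044. The pair shared 3 of 7 triples at 0 min and 0 of 8 at 30 min.

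The 4 largest falls at 30 min, of the 14 copies that fell, came from the 4 pairs described next. On chromosome 21 the minus-strand copies 6479421 to 6481972 and 6518361 to 6519930 fell from 15 and 16 calls to 5 and 3 and to 1 and 2, and from 9 and 10 to 3 and 1 and to 1 and 2. Their log2 changes at 60 min were -2.83 (SE 0.37, adjusted p = 7.3e-05) and -2.15 (SE 0.44, adjusted p = 0.0023). Without scaling the second passed no longer at 60 min (0.0561). The 30-min calls (adjusted p = 0.0128 and 0.0138) were lost when the 0-min replicate 1 (0.0681 and 0.0758) or the 30-min replicate 2 (0.0672 and 0.0988) was left out. A convergent pair on chromosome 4 (9085437 to 9088851, plus, and 9092637 to 9096057, minus) fell from 19 and 17 calls to 12 and 6 and to 9 and 7 on the plus copy, and from 15 and 16 to 5 and 3 and to 7 and 4 on the minus copy. All 4 of its adjusted p-values were between 0.00488 and 0.0108. With regions joined at a 200 nt gap its 30-min calls were lost (0.0721 and 0.107), as was the plus copy's when scaled over both strands (0.054). Without scaling, the 30-min calls of all copies named here on chromosomes 3, 4, 15, 17 and 21 were lost (adjusted p from 0.0518 to 0.173) except that of the plus copy on chromosome 15.

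In the other 2 pairs the loss at 30 min passed the test in 1 copy. On chromosome 21 the minus copy 7722064 to 7724490 had 4 and 10 calls at 0 min and 1 and 0 at 30 min (adjusted p = 0.00591), while its shorter plus copy (7617411 to 7618143) had 1 and 4, then 3 and 0 (0.456). Their groups overlapped on the plus copy. On chromosome 17 the minus copy 13158194 to 13159128 went from 3 and 6 to 1 and 0 (adjusted p = 0.0309, and 0.0887 without replicate 2 of 30 min), and its copy from 13171376 had 3 and 5, then 1 and 0, under the minimum for testing. A pair on chromosome 18 declined later. Its copy 15695524 to 15697295 had 13 and 9, 10 and 6, and 3 and 2 calls at 0, 30 and 60 min, and 15588377 to 15589905 had 12 and 7, 7 and 5, and 3 and 2. Both fell at 60 against 0 min (adjusted p = 0.000421 and 0.00202). The first also passed at 60 against 30 min (adjusted p = 0.0426). That call did not hold without either replicate of 30 min or replicate 2 of 60 min (log2 change -1.36, -1.41 and -1.27). It was also lost without scaling (0.23) and when scaled over both strands (0.0674). A minimum mean of 1 call (0.0634) or a prior of 0.25 calls (0.0671) lost it too.

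**Figure D5:**
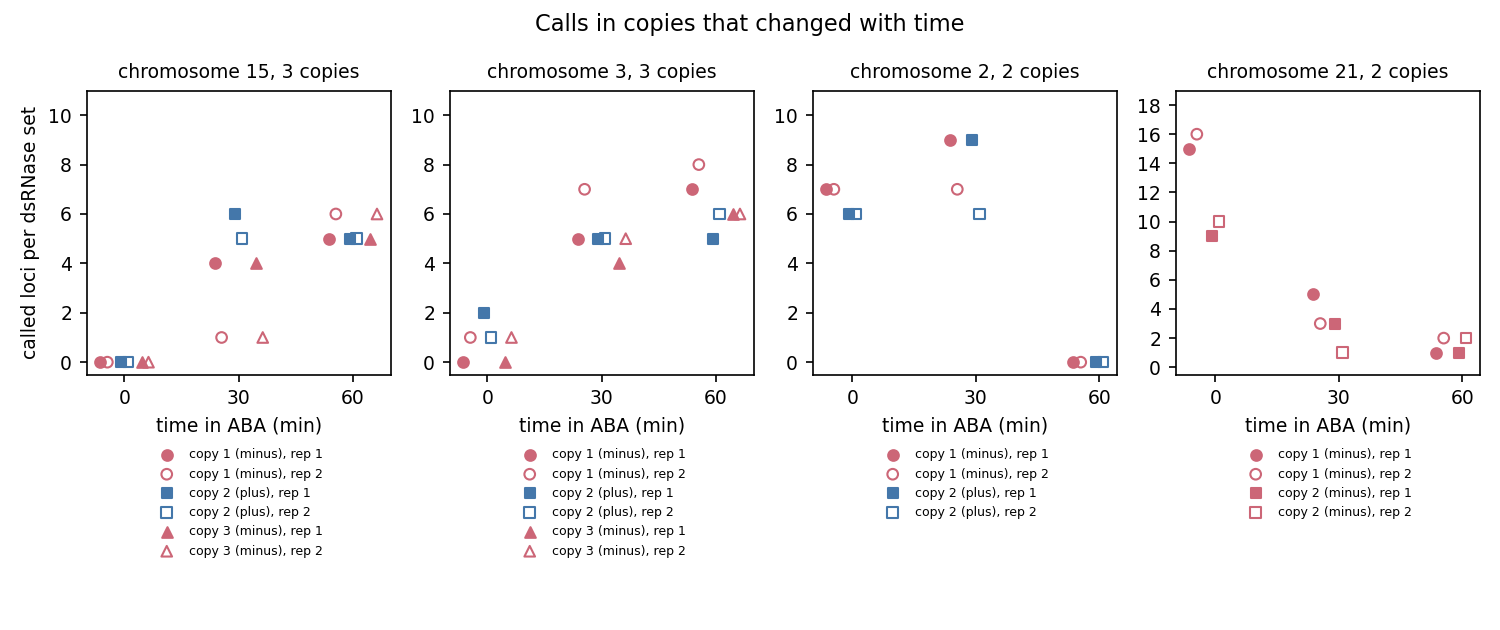
Called loci per dsRNase call set at 0, 30 and 60 min in the copies on chromosomes 15, 3, 2 and 21 with large fitted changes. Each point is 1 set of 1 copy, filled for replicate 1 and open for replicate 2, blue for plus and red for minus strand. In each panel the copies move in the same direction from 0 to 60 min.

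Copies could also differ. On chromosome 9 the minus-strand region 483189 to 486202 had 3 and 5 calls at 0 min, then 13 and 10, then 15 and 17 (log2 change at 60 min 2.12, SE 0.28, adjusted p = 6.59e-05). Its copy 531210 to 533068 had 6 and 6, 6 and 4, and 7 and 6 calls, with overlapping groups (0.32, SE 0.31, adjusted p = 0.553). The pair shared 7 of 8, 5 of 7 and 3 of 6 triples, and the first region is 1155 nt longer. Whether their changes differ was not tested. Some copies had been named in earlier results on these lists. The convergent pair on chromosome 10 (9450502 to 9456674, plus, and 9467095 to 9473225, minus) had 15 to 17 calls per dsRNase set on the plus and 16 to 19 on the minus copy, although shared triples went from 2 to 0 to 8. On chromosome 26 the minus-strand copies from 3750692 and 3772617 each had 12 and 13 calls at 0 min and 6 in every later dsRNase set (adjusted p = 0.211 at 30 min and 0.0705 at 60 min), so their later sets did not overlap those of 0 min although neither passed the test. The related region from 3672742 had 8 and 8, then 6 in each later set.

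Taken over all copies, the share of calls was nearly level. Of the dsRNase calls of replicates 1 and 2, copies held 8.95% and 8.92% (0 min), 7.66% and 8.75% (30 min), and 8.13% and 9.05% (60 min). The difference from 0 min was -0.73 percentage points at 30 min (8.21% ± 0.77 against 8.94% ± 0.03, SD, n = 2, exact two-sided permutation p = 0.3333) and -0.35 at 60 min (8.59% ± 0.65, exact p = 1.0). Without replicate 1 of 60 min the second difference was 0.11, and without replicate 1 of 30 min the first was -0.19. In the ssRNase sets the share was 11.7% to 13.1%. There 161 copies could be tested with limma, of which 5 had more calls at 30 min (background 12.6%) and 1 fewer (background 0.586%). At 60 min 9 had more (background 16%) and 9 fewer (background 3.68%). Between 30 and 60 min 0 copies passed in either direction (background 0% and 0.167%). Of the 161 copies, 16 and 9 passed an unadjusted p of 0.05, again without a share of all regions at that threshold.

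Copies were also present at more times than other regions. A site was listed at all 3 times in 403 of the 422 copies (95.5%) and in 76.8% of the 6645 other chromosome regions that held 2 triples at some time. Sites in copies had a median width of 46, 53 and 48 nt at 0, 30 and 60 min, and other chromosome sites 35, 42 and 38 nt. Copies were chosen for having several sites, so neither comparison has a test. They were also longer, with a median span of 1306 nt against 850 nt in the 6645 other regions. The other sites compared by width include those in regions with fewer triples.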

How the data were processed

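Analysed were 3 deposited site lists, 1 per time, made by the authors from 24 libraries. The submitters' processing notes name cutadapt 1.2.1, TopHat2 2.0.10 and mm10, a mouse build that cannot be that of these chromosomes, so the sources used here do not give the build. The names of the deposited lists state a false discovery rate of 5%. The score is a deposited value with no stated unit. The labels and the protocol differ on the protein step (kinase or proteinase), and which of plusP and minusP is the protein-bound state was not settled. No result uses it. Coordinates are 1-based.

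The members, the lists of pairs and the named regions were chosen with earlier results of these data known. Regions, triples and pairs were computed with Python 3.11.15. Called loci per region and dsRNase set (prior of 0.5 calls, scaled per call set and strand, mean of at least 2 calls) were fitted over all regions with limma 3.58.1 (R 4.3.3, mean trend, Benjamini-Hochberg at 0.05). The test was also run on counts simulated independently per set and region, without added replicate variation or reads shared between copies. The outcome is not reported here and is no check of the test on these lists. A floor of 3 calls per set was used for ratios against times with no call, and the limma fit did not use it. The fitted log2 change of regions with few calls depends on the prior. Named were the pairs with the most shared triples, the largest group, the extreme distances, the pairs between chromosomes, the 4 largest changes each way per contrast with their copies, the margins of the rule and regions named before. Alternatives were other gaps, rules, scalings, priors, minimums, sets and replicates left out. Gene names and sequences were not used here.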

Additional observations from a re-analysis of the deposited data

Results flagged for a closer look

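The comparisons above did not use 2 kinds of signal. On scaffolds, which the rule leaves out, 17 pairs would have met it, 13 of them between a scaffold and a chromosome and 4 between scaffold regions, with 17 of the 143 scaffold regions involved. In 4 regions a triple was repeated at least 2 times inside the region itself. These 4 lay on chromosomes, and 0 of these were copies.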

How the results depend on the processing

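The median distance stayed between 28.1 and 33.0 kb under every alternative rule, gap and site filter tried. With at least 3 triples and 50%, there were 152 pairs of 276 regions, 18.5% of them on opposite strands, 91.8% shared a triple at another time (76.7% as reported) and 98.3% of matched sites had the same call sets (97.1% as reported, 97.8% for sites of at least 2 call sets, 98.8% in same-strand and 90.3% in opposite-strand pairs alone). With triples equal to within 1 nt, chosen after seeing the data as were the pairs of one orientation alone, there were 422 pairs of 641 regions, 44.8% on opposite strands. Counts with more and fewer calls at 30 against 0 min (18 and 14 as reported) were 14 to 19 and 6 to 23 when 1 call set was left out. At 60 against 0 min (21 and 19) they were 18 to 24 and 11 to 34, and at 60 against 30 min (0 and 3) 0 to 13 and 2 to 6. The share of dsRNase calls in copies changed by -1.27 to -0.19 percentage points at 30 min and by -0.80 to 0.11 at 60 min. For 30 against 0 min other settings gave 5 with more calls without scaling, 5 in the ssRNase sets and 11 under the stricter rule, and 8 with fewer when scaled over both strands, 24 without a minimum, 9 at a prior of 0.25, 1 in the ssRNase sets, 26 from the 4 sets alone, 9 at a 200 nt gap and 8 in same-strand pairs alone. For 60 against 0 min they gave 9 with more in the ssRNase sets and 13 under the stricter rule, and 35 with fewer without scaling, 34 without a minimum, 9 in the ssRNase sets, 37 from the 4 sets alone and 12 under the stricter rule. For 60 against 30 min they gave 5 with more without a minimum, 4 at a prior of 1 and 6 from the 4 sets alone, and 6 with fewer without a minimum, 0 in the ssRNase sets and 1 under the stricter rule. Of 25 named changes, 11 passed under every alternative run, 14 were lost under at least 1 (13 without scaling) and 0 reversed. An alternative in which a region had too few calls to be tested was not counted for it. The 25 changes had 391 alternative values in all. The cause of the lost calls was not tested. With the replicate number as a block the 6 counts were 17 and 16, 21 and 20, and 0 and 3; the labels do not say that the number pairs samples, and the replicate differences of the times correlated at -0.06, -0.03 and 0.18 across 4502 regions, which are not independent. Depth is unknown, and its part in the changes of calls was not tested.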
